A study of Bos taurus with 18 samples.

Results

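The thrombospondin and matrilin genes were examined as the rows named THBS1, THBS2, THBS3, THBS4, COMP, MATN1, MATN2, MATN3 and MATN4 in the count files, 9 of 16989 genes, chosen by symbol and not by their values. All 9 were present. The samples were 17 clonal populations of bovine mesenchymal stem cells (MSCs), each grown from a single bone marrow cell and lettered A to Q, and 1 heterogeneous population grown from many cells (Het). The paper does not state how many donors these sequenced populations came from. The cells came from the tibial and femoral marrow of juvenile cattle and were grown on plastic in a serum-containing basal medium, without differentiation factors, to passage 1. Every clone and Het shared this culture, carried no genetic change and received no treatment. Polyadenylated RNA of each population was sequenced once, so the spread given below is that between clones and holds both biological and technical differences.

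Thrombospondins are large, calcium-binding glycoproteins that cells secrete into the space around them, where they bind cell receptors, proteases, growth factors and matrix fibers. Thrombospondin-1 and thrombospondin-2 assemble as trimers, restrain the growth of blood vessels and bind the receptors CD36 and CD47, and thrombospondin-1 can activate latent TGFβ. Thrombospondin-3, thrombospondin-4 and cartilage oligomeric matrix protein (COMP) assemble as pentamers. COMP is abundant in cartilage and tendon, where it binds collagen fibrils, and it is a customary marker of chondrogenic differentiation of MSCs. Matrilins are adaptor proteins built around von Willebrand factor A domains that link collagen fibrils to aggrecan and other matrix components. Matrilin-1 and matrilin-3 are best known from cartilage, whereas matrilin-2 and matrilin-4 are found in many tissues.

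The clonal libraries held 11484812 to 18458157 reads on genes (median 14193790) and Het held 16092501, and levels are given as CPM, the reads of a gene scaled by the library's total of reads on genes. A count of 3 reads, taken as the one-sided 95% limit of a count of 0, corresponded to 0.1625 to 0.2612 CPM. The stromal markers CD44, NT5E and THY1 were present in every library, at 154.95 to 790.25 CPM over the clones. LEPR, on the same list of 9 stromal markers, had no more than 2 reads in any library. Of 10 leukocyte and macrophage markers, 9 were called higher in Het (edgeR, where 1.21% of all genes were called higher), where the list summed to 152.62 CPM against 2.11 to 7.66 CPM in the clones. Clones C and O were the closest of 136 pairs of clones (r = 0.9954), with a chi-square of 4.9 per gene against 22.33 for the next pair. That is more than counting noise, but it cannot show that C and O are independent clones, which was not tested. Both are labeled as clones, so each was counted in the tests and permutations. Transcript lengths were not used, so levels are compared between samples of 1 gene and not between genes.

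THBS1 was abundant in every population. It ran from 2991.6 CPM in clone L through a median of 6020.8 to 20454.3 CPM in clone Q, a 6.84-fold range, with 41837 to 296735 reads behind the values. Clones Q, F and P were highest and clones L, H and I lowest, and no pair of neighbors in the order of the 17 clones had overlapping 95% counting intervals. These intervals cover counting error only, since a clone was sequenced once. THBS1 alone made up between 77.4% of the reads on the 9 genes in clone L and 98.4% in clone E. In these bulk libraries, fewer cells that express a gene and less RNA per cell cannot be told apart.

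THBS2 varied far more. It ran from 54.0 CPM in clone E through a median of 411.5 to 2423.6 CPM in clone P, a 44.9-fold range on 837 to 41976 reads. Clones P, Q and N formed the upper end, at 2423.6, 2254.7 and 1482.2 CPM, and the next clone, L, stood at 769.4 CPM. Of the 16 neighboring pairs in the order, 12 had separate counting intervals. Clones that stood high for THBS1 were not always high for THBS2. Clones E and F, at 54.0 and 113.1 CPM for THBS2, were among the 7 clones highest for THBS1, while clone L was lowest for THBS1 and stood just below clones P, Q and N for THBS2. The ratio of THBS1 to THBS2 reads therefore ran from 3.89 in clone L to 156 in clone E.

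THBS3, which is widely expressed and active in growing bone, ran from 38.0 CPM in clone G through a median of 71.4 to 140.0 CPM in clone D, a 3.68-fold range on 511 to 2017 reads. Clones D and Q lay above the rest, with clone A next at 103.3 CPM. In the order of the clones, 12 of 16 neighboring pairs had overlapping counting intervals, which is no test of a difference within a pair.

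COMP was low in most clones and high in a pair of them. It ran from 0.149 CPM in clone G, which is 2 reads, through a median of 1.92 to 56.3 CPM in clone N, which is 775 reads. Clone Q followed with 596 reads and 41.1 CPM, and the clone after it, A, had 82 reads and 6.66 CPM, a gap of 2.58 log2 units. Clone N alone held 41.9% of all COMP reads in the clones. Only 3 of the 16 neighboring pairs had separate counting intervals (N above Q, Q above A, and K above P). Below clones N, Q, A and K the intervals of adjacent clones overlapped. The lowest clones, G, M, E, O and C, had 2 to 14 reads each.

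THBS4, a thrombospondin of tendon and muscle, was close to absent outside clone M. Clone M had 89 reads and 4.82 CPM, or 64.0% of the THBS4 reads in all clones, and the other 16 clones had 0 to 10 reads, with 5 of them at 0. Clones E and H had 10 reads each. Clone M was the only one whose counting interval was separate from that of the next clone in the order. Clones E and H, at 10 reads each, also lay above the intervals of clones C, G, L and O, which had 0 reads.

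**Figure D1:**
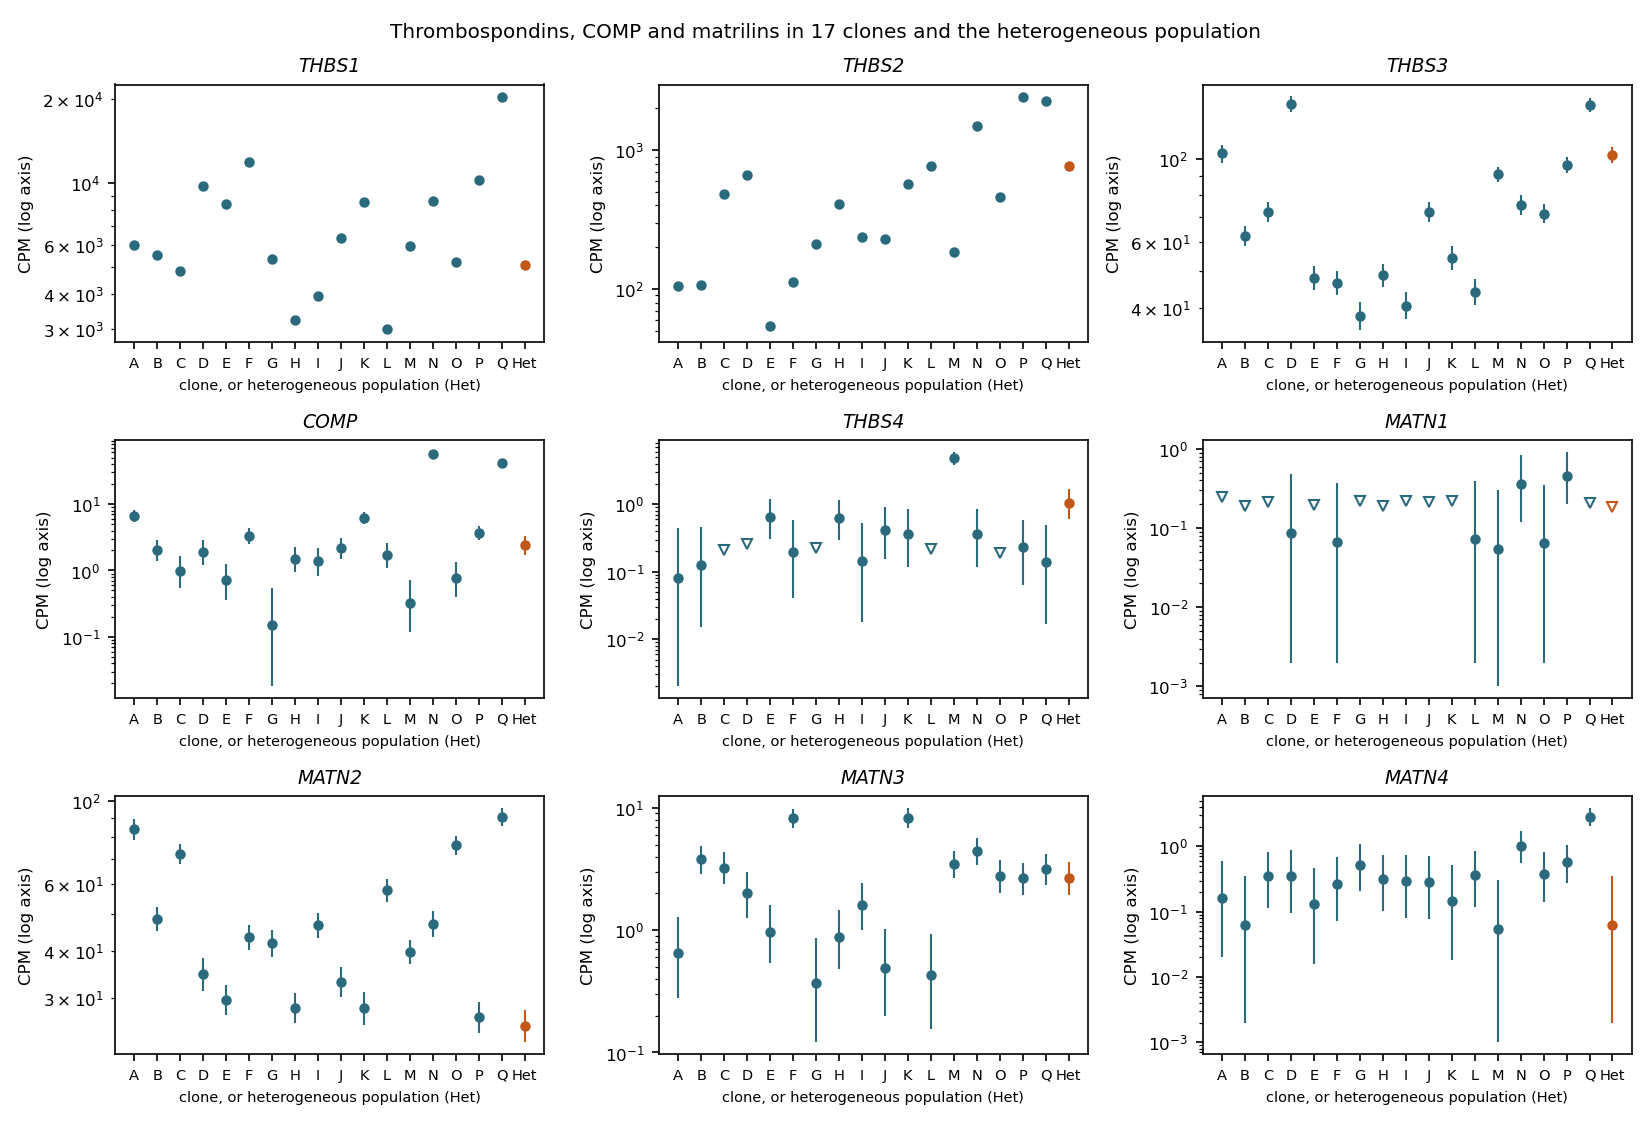
Level of each of the 9 genes in CPM, on a logarithmic axis, in the 17 clones (blue) and in Het (orange), with 95% counting intervals; open triangles mark libraries with 0 reads, drawn at the limit of 3 reads. COMP is separated in clones N and Q, at 56.3 and 41.1 CPM, and THBS4 in clone M, at 4.82 CPM.

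Among the matrilins, only MATN2 was well measured in every population. MATN2 ran from 26.6 CPM in clone P through a median of 43.4 to 90.5 CPM in clone Q, a 3.40-fold range on 387 to 1313 reads. Clones Q, A, O and C were the 4 highest, at 72.1 to 90.5 CPM, and clone L followed at 57.8 CPM. Clone P, which had the highest THBS2, thus had the lowest MATN2.

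MATN3, a matrilin of growth plate cartilage, ran from 0.372 CPM in clone G through a median of 2.66 to 8.28 CPM in clone K, on only 5 to 124 reads. Clones K and F, at 8.28 and 8.24 CPM, were the only ones set apart from their neighbors by counting interval, and all other neighboring pairs overlapped. Clone N, which had the highest COMP, had 4.43 CPM of MATN3, just below clones K and F.

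MATN1, a marker of mature cartilage, had 18 reads over all 17 clones together, with 10 clones at 0 and no more than 8 reads in any (clone P). It did not pass the filter on low counts. MATN4 had 1 to 41 reads per clone. Clone Q had 41 reads, clone N 14 and clone P 10, and the other 14 clones had no more than 7. In the RefSeq table of the later assembly ARS-UCD2.0, MATN1 overlaps LAPTM5, a leukocyte gene with 12 to 316 reads in the clones, THBS4 overlaps MTX3 with 37 to 115 reads, and MATN4 overlaps RBPJL with 0 to 7 reads. Counting was not stated to use strand, so the few reads of MATN1, THBS4 and MATN4 cannot be told apart by strand from those of their neighbors. THBS1 overlaps FSIP1, which had no more than 30 reads in any library against the 41837 or more of THBS1. MATN4 is also listed there as an older name of SLPI, so its few reads are uncertain in this respect too.

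The spread of the family was then set beside that of all genes. Over the 11477 genes with more than 1 CPM in at least 1 clone, the SD of log2(CPM + 0.25) over the 17 clones was larger for COMP, at 1.91 log2 units, than in 99.7% of genes. Among genes of similar level the SD of COMP was larger than in 98.9%. For THBS2 the SD was 1.59, larger than in 99.1% of all genes and in 99.7% of genes of similar level. THBS1 had an SD of 0.71 (93.8% of genes of similar level were less spread), THBS3 0.59 (91.6%), MATN2 0.57 (91.4%) and MATN3 1.21 (89.6%). MATN4, at 0.80, exceeded 65.1% of genes of similar level, and THBS4, at 1.08, exceeded 85.6%. For both, counting error of a few reads is a large share of the spread. These positions are descriptions, and no test was applied to them.

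**Figure D2:**
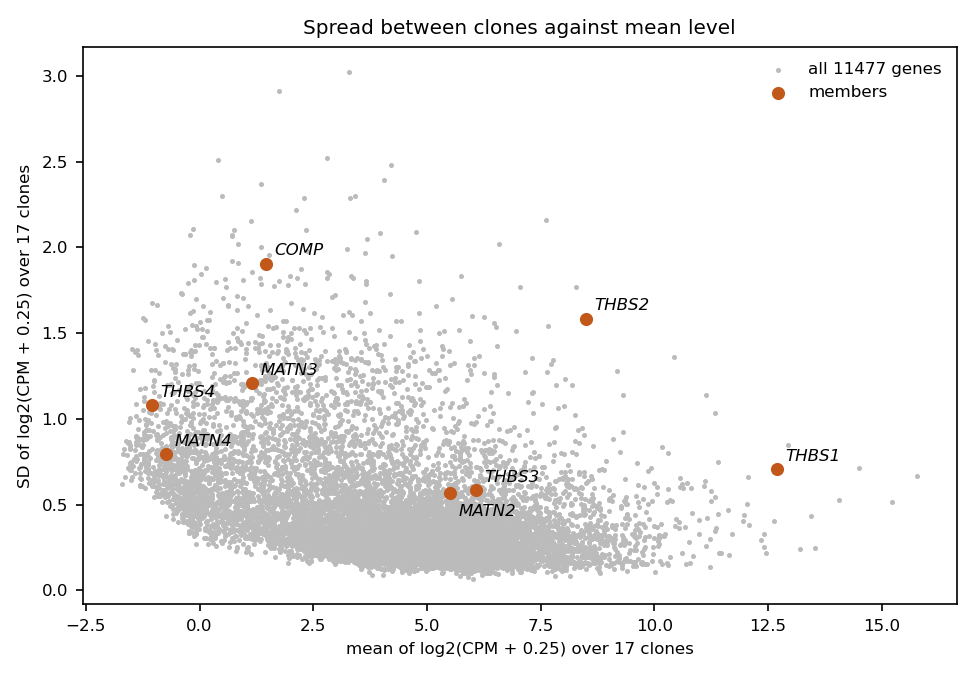
SD of log2(CPM + 0.25) over the 17 clones (vertical axis, log2 units) against its mean (horizontal axis) for 11477 genes in gray, with the members that passed the level filter in orange. COMP, at an SD of 1.91, and THBS2, at 1.59, lie near the top of the genes of their level, and MATN2 and THBS3, at 0.57 and 0.59, are closer to the body of the genes.

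To ask whether any single clone departed from the rest, each clone was compared with the other 16 by edgeR, which takes the 1 library to vary as the others do. None of the 136 tests on the 8 genes with enough reads passed an adjusted p of 0.05, and over all genes 0.045% of gene-by-clone tests did. At an unadjusted p under 0.05 there were 6 of 136 (4.41%), against 4.4% over all genes. On the same tests limma called 4 and DESeq2 called 1, where they called 0.262% and 0.23% of all gene-by-clone tests.

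The 6 tests were the following, each with its log2 difference from the other clones ± SE and its edgeR adjusted p. In clone M, THBS4 differed by 4.60 ± 0.90 (adjusted p = 0.103), where limma gave 0.000231 and DESeq2 0.411. COMP in clone N differed by 3.44 ± 1.28 (adjusted p = 0.197), where limma gave 0.0028 and DESeq2 0.0118. MATN4 in clone Q had the second smallest p of 11761 genes in that clone, yet its difference of 3.08 ± 0.63 rested on 41 reads and did not pass (adjusted p = 0.511), and limma gave 0.00736. THBS1 in clone Q differed by 1.56 ± 0.53 (adjusted p = 0.758). THBS2 in clone P differed by 2.25 ± 1.05 (adjusted p = 0.832). MATN2 in clone A differed by 1.04 ± 0.45 (adjusted p = 0.989). The other call of limma was COMP in clone Q, 2.91 ± 1.44 by edgeR with an adjusted p of 0.758, and 0.0376 by limma. The clones it was compared with include clone N, the highest for COMP, and without clone N the difference was 4.11 (edgeR adjusted p = 0.228). In a simulated single library with changes of 2 log2 units, 8.78% of limma's calls and 21.4% of DESeq2's were false, against 4.61% for edgeR, which found 72.5% of the changes. With changes of 1 log2 unit these shares were 22.7%, 34.5% and 4.55%, and edgeR found 10.5%. Changes were planted only in genes above 1 CPM, whereas THBS4 and MATN4 had clone means of 0.48 CPM. edgeR's coefficient of variation between clones was 155.7% for THBS4, 131.7% for COMP and 83.5% for MATN4, against a median of 24.3% over all genes. The simulated shares are averages over genes and do not describe these 3 members.

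Whether the members moved together over the clones was examined by Pearson correlation of log2(CPM + 0.25), with two-sided permutation p-values adjusted over all 9186 genes with a mean above 5 CPM that were scanned against each member. THBS1, THBS2, THBS3, COMP, MATN2 and MATN3 had enough reads, giving 15 pairs, and none passed. The largest coefficient among the 10 pairs without COMP was that of THBS1 with THBS3, r = 0.562 (permutation p = 0.0187, adjusted p = 0.112, rho = 0.537, permutation p = 0.029). An unadjusted p under 0.05 with THBS1 was reached by 28.6% of all scanned genes. The coefficient was 0.327 without clones L and Q, the 2 farthest from the median of THBS1, and 0.393 without clones N and Q. With 1 clone at a time left out it was 0.406 to 0.684. THBS1 with MATN3 had r = 0.509 (permutation p = 0.0367, adjusted p = 0.151, rho = 0.449, permutation p = 0.073). THBS1 with THBS2, the closest relatives in the family, had r = 0.281 (permutation p = 0.274, adjusted p = 0.466, rho = 0.199, permutation p = 0.442), and r = -0.06 without clones N and Q. MATN2 had r between 0.00 and 0.28 with the other members of these 10 pairs.

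Because clones N and Q lie apart from all others for COMP, no coefficient over all 17 clones is given for it. Over the other 15 clones COMP had r = 0.336 with THBS1, 0.187 with THBS2, 0.274 with THBS3, -0.06 with MATN2 and 0.285 with MATN3. The permutation p of these 5 lay between 0.222 and 0.847. Over these 15 clones 0 of 9186 genes correlated with COMP after adjustment, against 5.79% over all 17 clones.

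Of the reference genes chosen to place the members, the one with the largest coefficient was CTGF with THBS1. CTGF is a secreted matricellular protein and a classical target of TGFβ and of mechanical signals. It ran from 941.9 CPM in clone O through a median of 2215.6 to 3140.4 CPM in clone Q. Clone Q was the highest for both genes. Clones L, H, I, C and O were the 5 lowest for THBS1, at 2991.6 to 5195.2 CPM, and also the 5 lowest for CTGF, at 941.9 to 1120.6 CPM. Over the 17 clones r was 0.833 (permutation p = 2e-05, adjusted p = 0.02, rho = 0.821, permutation p = 0.0001), and 0.17% of all scanned genes had a coefficient as large with THBS1. It was 0.797 without clones L and Q and 0.822 without clones N and Q. With 1 clone at a time left out, clones C and O among them, it was 0.802 to 0.869. CTGF passed for THBS1 under every alternative that was run.

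TGFB2, a TGFβ ligand, was among the 5 genes most like THBS1. It had r = 0.842 with THBS1 (adjusted p = 0.0184) and 0.843 without clones N and Q, over levels of 10.37 to 130.7 CPM. The 4 others were TMEM117, DISP1 (which releases hedgehog proteins), NDRG2 and B3GNT2, with r of 0.834 to 0.855. The lowest coefficients were those of ZDHHC14, CDCP1 and STRADB, at -0.852 to -0.889. Of the listed genes of the field, THBS1 also correlated positively with MMP2, a gelatinase (r = 0.796, adjusted p = 0.0223), with FMOD, a collagen-binding proteoglycan (r = 0.693, adjusted p = 0.0457), and with COL11A1, a cartilage collagen chain (r = 0.751, adjusted p = 0.0332). It correlated negatively with ITGB3, a subunit of an integrin that binds thrombospondin-1 (r = -0.776, adjusted p = 0.0242). Without clones N and Q, MMP2 passed (r = 0.82, adjusted p = 0.0319), whereas FMOD (r = 0.533, adjusted p = 0.139), COL11A1 (r = 0.631, adjusted p = 0.0946) and ITGB3 (r = -0.615, adjusted p = 0.0968) did not. ITGB3 also missed the threshold with TMM library sizes (r = -0.633, adjusted p = 0.0574). For comparison, 567 of 9186 genes (6.17%) correlated with THBS1, 172 positively and 395 negatively. With TMM library sizes they were 779, of which 53.3% were positive against 30.3% with library totals, since the median r of all genes moved from -0.16 to -0.02. CTGF and TGFB2 kept their sign and passed there, with r of 0.855 and 0.863. Of 13 scanned genes of the list of TGFβ and mechanical targets these were the only ones to correlate with THBS1. The other coefficients of the list ran from -0.625 to 0.417. Its median r was -0.137 against -0.158 over all genes, so the list as a whole did not go with THBS1.

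**Figure D3:**
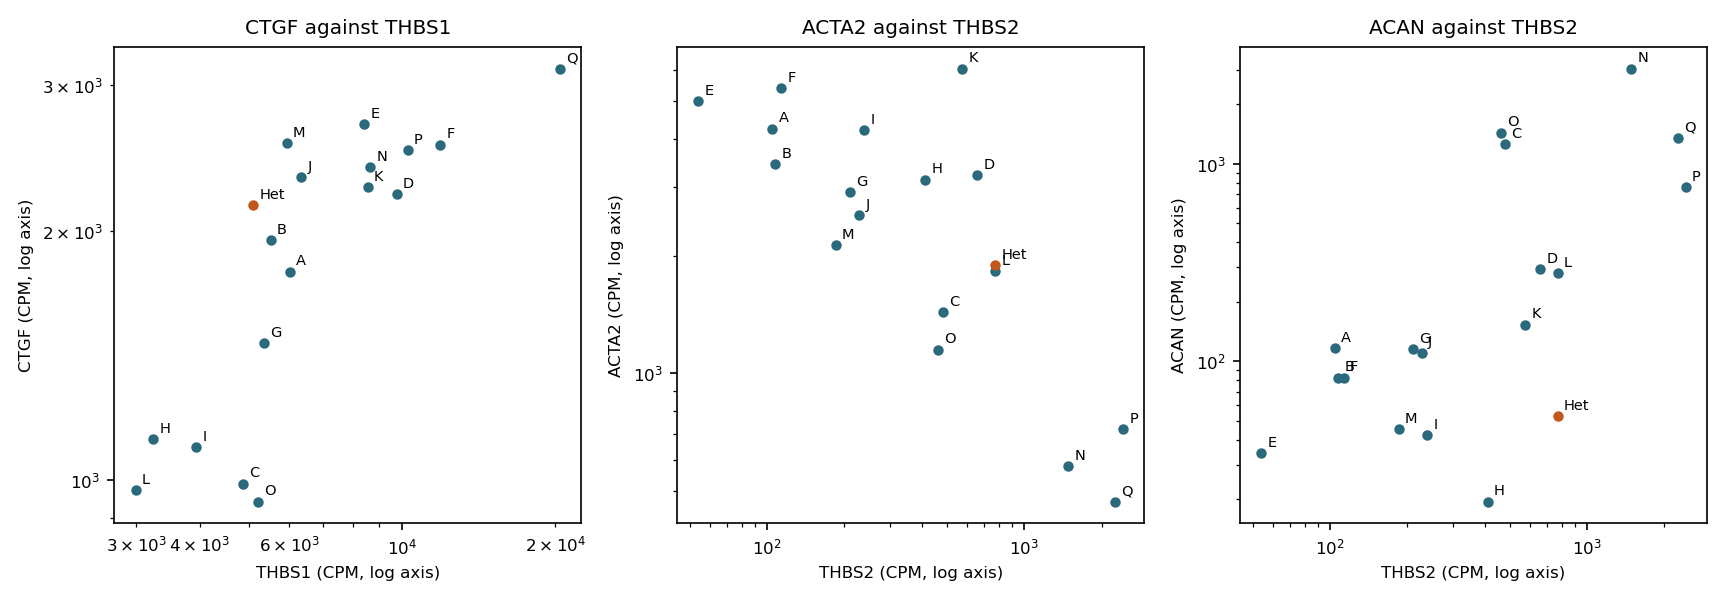
Levels in CPM on logarithmic axes in the 17 clones (blue, lettered) and Het (orange, not used for the coefficients) for CTGF against THBS1, ACTA2 against THBS2 and ACAN against THBS2. CTGF rises with THBS1 (r = 0.833), ACTA2 is lowest in clones N, P and Q, where THBS2 is highest (r = -0.788), and ACAN is high in clones N, O, Q, C and P (r = 0.729).

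THBS2 went with another set of genes. ACTA2, smooth muscle actin, ran from 468.5 CPM in clone Q through a median of 2921.4 to 6048.2 CPM in clone K, and clones N, P and Q, the highest for THBS2, were the lowest for ACTA2. Its coefficient with THBS2 was r = -0.788 (permutation p = 0.00017, adjusted p = 0.00493, rho = -0.667, permutation p = 0.00431), and -0.736 without clones E and P. Without clones N and Q it was -0.671 and no longer passed (adjusted p = 0.0623), and it was -0.481 without clones N, P and Q. TAGLN, an actin-binding protein of contractile cells, had r = -0.762 (adjusted p = 0.0086), and -0.637 without clones N and Q, where it no longer passed (adjusted p = 0.08). With TMM library sizes ACTA2 and TAGLN had r of -0.811 and -0.823.

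Cartilage genes lay on the positive side of THBS2. ACAN, the aggrecan core protein, ran from 19.47 CPM in clone H through a median of 117.2 to 3032.1 CPM in clone N and had r = 0.729 with THBS2 (permutation p = 0.00108, adjusted p = 0.0132, rho = 0.713, permutation p = 0.00193), 0.688 without clones E and P. Without clones N and Q it was 0.616 and no longer passed (adjusted p = 0.0987). With 1 clone at a time left out it was 0.689 to 0.807. SOX9, the transcription factor that drives chondrocyte genes, had r = 0.652 (permutation p = 0.00471, adjusted p = 0.0335, rho = 0.608, permutation p = 0.0108), 0.548 without clones E and P, and 0.59 without clones N and Q (adjusted p = 0.116). For THBS2, 33.3% of all scanned genes had an unadjusted p under 0.05. Of 12 scanned genes of the cartilage matrix list, 7 correlated positively with THBS2 and 0 negatively, against 17.5% of all 9186 genes. They were ACAN, HAPLN1 (link protein), MIA, SOX5, SOX6, SOX9 and PRG4, the lubricin gene. PRG4 was at 63.8 to 602.1 CPM in clones N, P and Q and at 0.49 to 4.65 CPM in the others. Its mean exceeded 5 CPM only through these clones, the highest for THBS2, so its call adds no support. The median r over the list was 0.662 against 0.272 over all genes. With TMM library sizes 6 of 12 correlated, PRG4 again among them and SOX9 not (adjusted p = 0.0642), and the medians were 0.623 and 0.011. Without clones N and Q, 2 of 12 did, HAPLN1 and SOX5, at a median r of 0.568 against 0.27.

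The genes that correlated with THBS2 numbered 1605 in all, 85.2% of them positive. With TMM library sizes there were 1235 and 46.5% were positive, of which 804 were shared with the first set, and without clones N and Q there were 694. The share of reads outside genes, 18.78% to 26.81% and highest in clone N, had r = 0.556 with THBS2 (permutation p = 0.0186, 0.224 adjusted over the 12 technical relations computed), and its part in these relations was not tested. The 5 genes most like THBS2 were RPRD1B, CLK2 (a splicing kinase), AP5B1, LNX2 and SLC25A37, with r of 0.914 to 0.924. The lowest were B3GALNT2, PALLD (an actin cross-linker) and TSPAN17, at -0.886 to -0.902. Among receptors and partners, SDC4 correlated positively with THBS2 (r = 0.804, adjusted p = 0.00308), and SDC1 (r = -0.799, adjusted p = 0.00445) and ITGB3 (r = -0.744, adjusted p = 0.00832) negatively. Among collagens and their partners COL14A1, COL12A1 and FN1 correlated positively, with r of 0.66 to 0.828, and COL1A1 and NID1 negatively, at -0.718 and -0.66. Without clones N and Q, SDC4, SDC1, COL14A1 and COL1A1 passed, with adjusted p of 0.0342 to 0.0362, and ITGB3, COL12A1, FN1 and NID1 did not, with 0.0852 to 0.266. COL12A1 also missed the threshold with TMM library sizes (adjusted p = 0.063).

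The other members showed fewer relations. THBS3 correlated with 37 of 9186 genes (0.403%), none of them in the 6 lists, and 106 with TMM library sizes, of which 14 were shared. Its most similar genes were ACRBP, SCMH1, BSG, GRN and TMEM42, with r of 0.81 to 0.865, and LDHB, RALGPS2 and DAP3 were at the other end, at -0.883 to -0.888. For MATN2 and MATN3 none of the 9186 genes passed the permutation test after adjustment, and 3.46% and 8.62% had an unadjusted p under 0.05. The nearest genes were MCFD2, TUSC3, RNF24, MESDC2 and MEF2C for MATN2 (r of 0.695 to 0.764) and FXR2, TSPAN3, TGFB2, STAMBPL1 and SERF1A for MATN3 (r of 0.743 to 0.837). The lowest coefficients were those of RNF10, NR2F1 and NCOA1 for MATN2 and of NUDT16L1, WIPI2 and S100A16 for MATN3, at -0.691 to -0.798. For COMP the order of likeness was set over all clones, and over the 15 clones without N and Q the 5 leading genes had r of 0.692 to 0.829. They were SEMA3C, a secreted guidance protein, SGCE, KCNMA1, FAM129A and MGP, an inhibitor of matrix calcification. CSDA, NKAIN1 and SLC19A1 were at the other end, with -0.593 to -0.706. The clones used to choose these genes include the same 15, so their coefficients are no separate check. None of the 9186 genes passed for COMP over the 15.

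**Figure D4:**
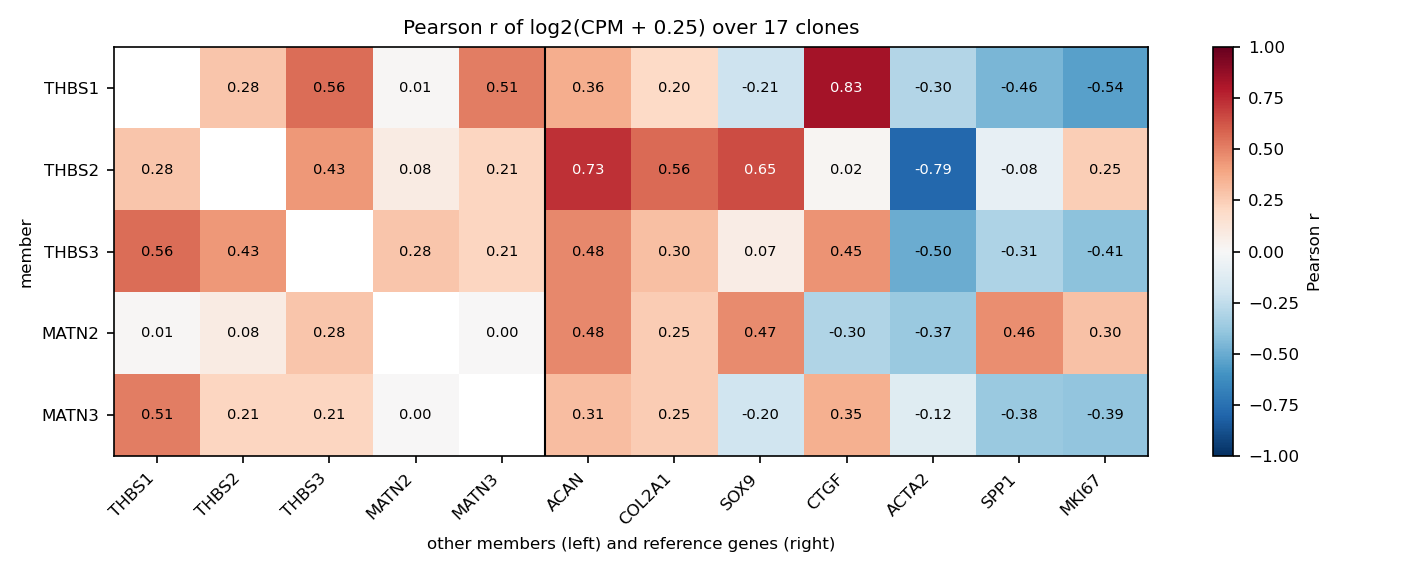
Pearson r of log2(CPM + 0.25) over the 17 clones between 5 members (rows) and, in columns, the same members (left of the line) and 7 reference genes (right), on a color scale from -1 (blue) to 1 (red). The darkest cells are THBS1 with CTGF (0.83), THBS2 with ACTA2 (-0.79) and THBS2 with ACAN (0.73), and no pair of members exceeds 0.56.

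Het was last compared with the 17 clones, in an edgeR test that takes the single Het library to vary as the clones do. None of the 8 members tested passed an adjusted p of 0.05, whereas 1.22% of 11878 genes did. None had an unadjusted p under 0.05 (7.68% of all genes did), and limma and DESeq2 called none of the 8.

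THBS1 was at 5093.6 CPM in Het, above 4 of the 17 clones, and its log2 difference from the clones was -0.49 ± 0.78 (SE). THBS2 was at 769.7 CPM, above 14 clones, with a difference of 0.41 ± 1.39, and Het had 6.62 THBS1 reads for each THBS2 read. THBS3 was at 102.5 CPM, also above 14 clones, with 0.56 ± 0.57. Het thus lay inside the range of the clones for all 3 genes. The difference of THBS2 was 0.72 without clone P and 0.69 without clone Q, and that of THBS1 was -0.32 without clone Q.

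COMP had 39 reads and 2.42 CPM in Het, above 11 clones but far under clones N and Q, with a difference of -1.52 ± 2.48. THBS4 had 17 reads and 1.06 CPM, more than every clone but M, with 1.08 ± 1.88. MATN3 had 43 reads and 2.67 CPM, next to the median of the clones, and a difference of -0.002 ± 1.26. MATN4 had 1 read, with a difference of -2.67 ± 1.88, and MATN1 had 0 reads. The differences of COMP and THBS4 moved with single clones, to -0.84 for COMP without clone N and to 2.35 for THBS4 without clone M, with edgeR adjusted p of 0.923 and 0.62. The standard errors of COMP, THBS2, THBS4, MATN3 and MATN4 exceeded 1 log2 unit.

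MATN2 was the only member outside the range of the clones in Het. It had 25.2 CPM (406 reads), under the 26.6 CPM of the lowest clone, with a log2 difference of -0.87 ± 0.61 and an edgeR adjusted p of 0.728. Of all genes tested, 10.9% were likewise under every clone in Het. The counting interval of Het overlapped that of clone P.

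**Figure D5:**
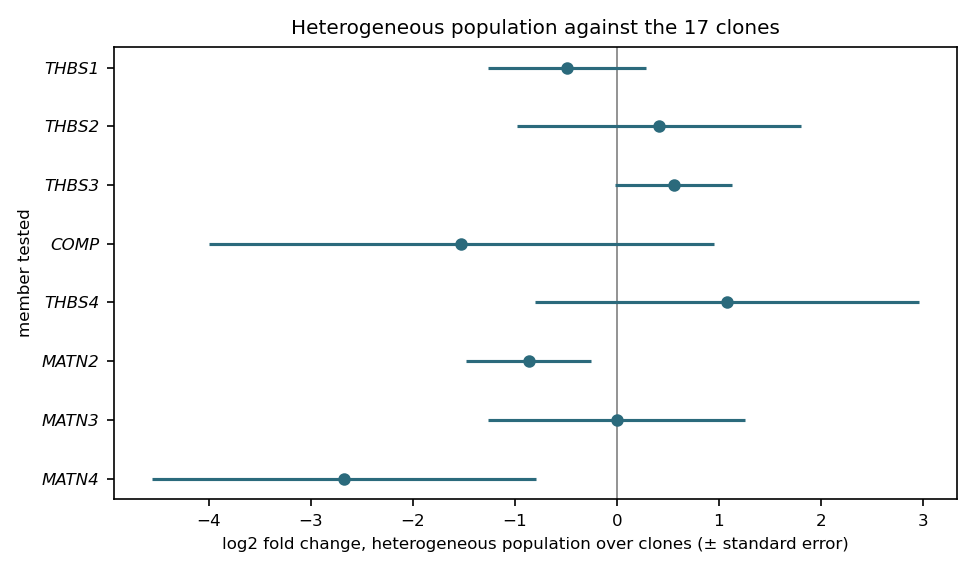
Log2 fold change of Het over the 17 clones with its standard error for the 8 members tested by edgeR. The estimates run from -2.67 for MATN4 to 1.08 for THBS4, and none of the 8 passed an adjusted p of 0.05.

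Of 16 thrombospondin receptors and partners tested, 1 was called in Het by edgeR, where 1.22% of all genes were called. CD36, a receptor for thrombospondin-1 and thrombospondin-2 that is also found on macrophages and platelets, had 122 reads and 7.58 CPM in Het and 0 to 32 reads (0.00 to 2.32 CPM) in the clones, a log2 rise of 3.85 ± 0.86 (edgeR adjusted p = 0.0229), which DESeq2 did not call. All 17 clones lay under Het. Of 10 leukocyte markers, 9 were called higher in Het as well. Among them CD163, CD14 and PTPRC had 667, 218 and 102 reads in Het and no more than 12 in any clone. Of 4 platelet genes tested, 2 were called higher, PF4 and PPBP. The other 2, GP9 (log2 difference -0.11 ± 0.22) and ITGA2B (0.53 ± 0.42), were not. The part of such cells in the CD36 difference was not tested. The receptor CD47 was at 222.1 CPM in Het, within the clones' 165.07 to 474.7 CPM. Of the other lists, 0 of 8 proteases, 0 of 14 collagen and matrix partners, 0 of 15 cartilage matrix genes, 0 of 14 TGFβ and mechanical targets and 0 of 5 tendon genes were called. These lists are too small for their counts to be told apart from a share of 1.22%. The median log2 difference of the cartilage matrix list was -1.84 against -0.04 over all genes. These differences are from the clone mean, which a few high clones raise. PRG4 had -4.81 ± 4.96, yet its 1.55 CPM in Het lay above the clone median of 1.13, while ACAN, at 53.01 CPM, lay under its median of 117.16. Summed over the list, Het had 3579.1 CPM against a clone median of 3678.3, most of it COL11A1. COL2A1, at 16.41 CPM, lay under the 19.38 CPM of its lowest clone, and SOX9, at 2.98 CPM, within the clones' 2.55 to 24.16 CPM.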

How the data were processed

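Single-end 50-bp reads of poly-adenylated RNA were aligned by the authors to bosTau7 with STAR (version 2.3.0e in the submitters' processing notes) and counted with HTSeq on RefSeq genes of the bovine annotation, and they deposited the raw counts of each library without normalization. Strand settings were not given in the sources used here. Each file ends in 5 tally lines that name no gene, and these were dropped. The reads they count outside genes made up 18.78% to 26.81% of a file. A table of the whole series that repeats the counts was not used.

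Counts were scaled to CPM by reads on genes. Exact Poisson 95% intervals cover counting error only, since PCR copies were not marked. Count tests were the quasi-likelihood tests of edgeR 4.0.16 after TMM scaling and filterByExpr (R 4.3.3), with DESeq2 1.42.0 and limma 3.58.1 as alternatives, all at a Benjamini-Hochberg adjusted p of 0.05. These tests pool the spread of the 17 clones, whose number of donors the paper does not state, so p-values measure the spread between these cultures only. Correlations used log2(CPM + 0.25), genes with at least 10 reads in at least 9 clones, and 100000 permutations (scipy 1.17.1 and numpy 2.4.6 under Python 3.11.15). The count and correlation tests were tested on simulated data.

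The paper's FPKM were not recomputed, since lengths were not used here. The 9 members matched the ARS-UCD2.0 RefSeq table by symbol. That is not the authors' build, so no coordinates are printed and overlaps between genes are taken from it only as neighborhoods. Named genes are the members, the reference genes measured (ACAN, COL2A1, SOX9, PRG4, CTGF, ACTA2, SPP1 and MKI67, and 1 that is not reported here), the 5 genes most and 3 least like each member, and list genes called. List genes that correlated were named after their values were seen. The members and lists were chosen with earlier results of these data known. Marker lists of other cells gave 0 calls in Het for endothelial, chondrocyte, adipocyte, osteoblast and stromal genes, 2 of 4 for platelet and 9 of 10 for leukocyte genes.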

Additional observations from a re-analysis of the deposited data

How the results depend on the processing

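Among the listed and reference genes, no coefficient that passed its threshold changed sign with TMM library sizes or without clones N and Q. Coefficients that did not pass could, such as that of THBS1 with THBS2, 0.281 over all clones and -0.06 without clones N and Q. For each clone against the others, 0 member tests passed with edgeR, 4 with limma and 1 with DESeq2. In Het, 0 members were called under every alternative, and CD36, the 1 gene of the pathway lists called by edgeR, was not called by DESeq2, which called 0. Of 54 pairs of a member and a reference gene, 6 passed after adjustment over these pairs, 1 by Spearman rank (THBS1 with CTGF), 1 without clones N and Q and 1 without clones N, P and Q, the last settings chosen after seeing the data. Leaving out 1 clone at a time gave 4 to 8 of the 54. The 6 include PRG4 with COMP and PRG4 with THBS2, which add no support, since PRG4 is high only in clones N, P and Q. Of the 40 pairs without COMP and PRG4, 4 passed. Of the 15 pairs of members 0 passed, or 0 to 1 with a clone left out, the 1 being THBS1 with THBS3 without clone F (r = 0.684). COMP correlated with 532 genes over all clones and with 0 without clones N and Q, and THBS1 with 567 and 136. No paired analysis was possible because the labels carry no replicate numbers. Depth limits THBS4, MATN1 and MATN4, with 139, 18 and 117 reads over all clones, and in most clones also COMP and MATN3.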
